A study of Mus musculus with 12 samples.

Results

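The autophagy machinery was described here through 46 genes, taken by name from the initiation, nucleation, membrane supply, conjugation, cargo receptor and lysosomal steps of the pathway. Of these, 42 were found among the 9374 genes of the deposited expression table. The other 4, *Atg14*, *Atg4a*, *Atg10* and *Gabarapl1*, had no row in that table and were not analysed here. The genes were listed by their role and not by a value, but with earlier results of these data known.

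Autophagy encloses cytoplasm, damaged organelles or microbes in a double membrane, the autophagosome, which fuses with the lysosome for degradation. The ULK1 kinase complex starts the process, and the class III phosphatidylinositol 3-kinase complex marks the membrane on which the autophagosome grows. ATG9 vesicles and ATG2 lipid transfer proteins supply the membrane. A ubiquitin-like cascade, in which ATG7 is the activating enzyme and ATG3 the conjugating enzyme for LC3-type proteins, attaches these proteins to lipid. Cargo receptors such as SQSTM1 and NBR1 bind both cargo and the attached LC3. In neutrophils, autophagy genes are known for roles in differentiation, granule content and the handling of ingested bacteria. HMGB1, a chromatin protein that also acts outside the nucleus, has been described as a binding partner of Beclin 1, the product of *Becn1*.

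RNA was sequenced from neutrophils of the blood of female mice. There were 4 groups of 3 libraries each. KO-LPS and KO-Saline came from the Hmgb1ΔMye line (ΔMye denotes a myeloid deletion), and WT-LPS and WT-Saline from wild-type mice. LPS, the bacterial lipopolysaccharide sensed by Toll-like receptor 4, was given at 0.5 mg/kg for 16 h, and saline was its control. The driver of the deletion is not given in the sources used here. Whether each library of a group came from its own mouse is not stated in the labels. The p-values therefore speak of the spread between these samples only, which may be technical.

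Libraries held 399702 to 526757 reads in the table, and 3 reads, the limit that a count of 0 allows, corresponded to 5.58 to 8.0 CPM, the reads of a gene scaled to a common library size. All 16 neutrophil markers were in the table. Their summed level was 24550 to 25520 CPM in KO-LPS, 21780 to 22290 CPM in KO-Saline, 22430 to 25020 CPM in WT-LPS and 16230 to 21220 CPM in WT-Saline. *Hmgb1* had 101 reads in the 6 KO libraries and 100 in the 6 WT libraries, a mean of 40.6 ± 22.6 CPM and of 34.3 ± 15.6 CPM (SD, n = 6 each). Reads over the whole gene do not check a partial deletion, and KO below means the libraries labelled so. KO-LPS replicate 1 stood apart from the other LPS libraries. The summed level of the 8 of 12 immature neutrophil markers that were in the table was 3156, 15580 and 14890 CPM in KO-LPS, 2246 to 2678 CPM in KO-Saline, 11640 to 16790 CPM in WT-LPS and 1980 to 2809 CPM in WT-Saline. The main results that rest on KO-LPS replicate 1 are given with and without it. The tests below share 1 estimate of the spread over all groups, so those within WT draw on this library too. The kit marks strand, but the strand setting of the counting is not given in the sources used here. Of 230 long non-coding RNAs overlapping a measured coding gene on the other strand, 170 had more reads than that gene (73.9%, exact binomial 95% interval 67.7% to 79.5%). Exons of 13 of the 42 autophagy genes lie partly over exons of another gene on the opposite strand, and reads of such a pair cannot be told apart here. If the wrong strand was counted, the values of all genes would be uncertain, with or without such an overlap. This was not tested.

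Of the 42 autophagy genes, 27 were at or above the median gene of the table by mean reads. Mean reads per library ran from 2.25 for *Atg4c*, which encodes one of the ATG4 proteases that process LC3-type proteins, to 222.2 for *Atg4d*, which encodes another. A mean of 10 reads was reached by 31 of the 42 genes, and 9 had a count of 0 in at least 1 library. Levels were also divided by the joined length of all annotated exons of a gene. That length can exceed the length of its transcripts, so this ranking depends on the annotation too. On this scale the highest mean level was that of *Gabarap*, an LC3-type protein, at 93.9 CPM per kb. It was followed by *Atg4d* at 68.2, *Atg7* at 62.3, *Vmp1*, a scramblase of the endoplasmic reticulum, at 52.3, and the receptor gene *Sqstm1* at 44.6 CPM per kb. Among the LC3-type genes, *Map1lc3b* had 18.8, *Map1lc3a* 10.8 and *Gabarapl2* 2.68 CPM per kb. The lowest was *Pik3r4*, the regulatory subunit of the class III kinase, at 1.21 CPM per kb. The summed level of the 42 genes was 3284 to 3705 CPM in KO-LPS, 3480 to 4449 CPM in KO-Saline, 3416 to 3541 CPM in WT-LPS and 3440 to 3775 CPM in WT-Saline.

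The first question of the design was how neutrophils of mice given LPS differ from those of mice given saline. In WT, *Atg4d* rose and *Atg3*, *Atg7* and *Tfeb* fell, and the other 38 genes did not pass the test. A gene was called where limma's moderated test on the deposited log2 values, adjusted by Benjamini-Hochberg over all 9374 genes, gave an adjusted p under 0.05. By this rule 11.7% of all genes were called, 6.72% as higher and 4.96% as lower, so that 4 calls among 42 autophagy genes were a share near the background. Without the model's mean-variance trend none of these 4 was called, with adjusted p-values of 0.0763 (*Tfeb*) to 0.154 (*Atg4d*), and 363 genes of the table were. Without KO-LPS replicate 1, 6 autophagy genes were called in WT, with *Atg9a* and *Lamp1* added as higher, among 1427 genes of the table. With all 12 libraries, the median log2 fold change was 0.11 over the autophagy genes and 0.06 over all genes. The median over the autophagy genes was -0.0019 to 0.19 as each library was left out, and -0.044 over those with a mean of at least 10 reads. The median standard error of an autophagy gene was 0.48 on the log2 scale, so that for most members a change of that size was not detectable at this depth. Adjusted p-values below are from this model, and ± beside a log2 value marks its standard error.

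*Atg3*, the conjugating enzyme for LC3-type proteins (mm10, chr16:45158785-45188538, plus strand), had the lowest adjusted p of the autophagy genes in WT. It had 54.5, 44.3 and 46.5 CPM in WT-LPS, against 138.0, 181.8 and 165.8 CPM in WT-Saline. Every WT-LPS library lay below every WT-Saline library. The group means were 48.4 ± 5.4 and 162 ± 22 CPM (SD, n = 3 each), a log2 fold change of -1.72 ± 0.40 (adjusted p = 0.00413). In bulk samples, fewer cells that express a gene and less RNA per cell cannot be told apart, and this holds for each change described here. *Atg3* had 248.1, 66.6 and 49.3 CPM in KO-LPS, against 173.2, 249.5 and 184.8 CPM in KO-Saline. KO-LPS replicate 1 lay among the saline libraries and the other KO-LPS libraries lay among WT-LPS or just above it. The log2 fold change in KO was -1.09 ± 0.40 (adjusted p = 0.143), and without KO-LPS replicate 1 it was -1.78 (adjusted p = 0.000157). Without KO-LPS replicate 2 it was -0.84 (adjusted p = 0.470), and without KO-LPS replicate 3 it was -0.63 (adjusted p = 0.579). Averaged over both genotypes it was -1.40 ± 0.28 (adjusted p = 0.000664), and *Atg3* kept this call and its WT call whichever library was left out. No exon of *Atg3* overlaps an annotated gene on the opposite strand.

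The bases before the start site of *Atg3* are shown because they hold the E-box CACGTG and its extended form TCACGTGA, which TFEB-family factors are known to bind in promoters of lysosomal and autophagy genes. Capitals mark these motifs in the 250 bases before the RefSeq start (GRCm38.p6, chr16:45158579-45158828, plus strand).
Atg3: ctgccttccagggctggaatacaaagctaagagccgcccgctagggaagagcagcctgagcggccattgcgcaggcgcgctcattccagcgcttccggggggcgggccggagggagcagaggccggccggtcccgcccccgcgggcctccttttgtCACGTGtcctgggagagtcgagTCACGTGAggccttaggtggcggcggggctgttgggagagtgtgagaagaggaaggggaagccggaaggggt
The 300-base windows searched held these 250 bases and 50 after the start. CACGTG reads alike on both strands, each TCACGTGA contains one, and it was found in 7.15% of all 32851 RefSeq windows. Of the 33 measured autophagy genes with a window, 5 held it (15.15%), namely *Atg3*, *Atg5*, *Atg7*, *Bnip3* and *Lamp1*, against 11.65% of the 7484 genes of the table with one. TCACGTGA was in 0.974% of all windows. Counted by gene, it was in 1 of these 33 autophagy genes, *Atg3* (3.03%), against 2.37% of the 7484 genes of the table. A match is a description of the letters and not of binding.

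*Atg7*, the activating enzyme of both autophagy conjugation systems (chr6:114643097-114860614, plus strand, no opposite-strand exon overlap), fell in both genotypes. It had 362.8, 266.5 and 317.3 CPM in KO-LPS, against 879.3, 607.5 and 469.4 CPM in KO-Saline. In WT-LPS it had 248.9, 297.4 and 262.0 CPM, against 421.2, 596.1 and 476.8 CPM in WT-Saline. Neither genotype's LPS libraries overlapped its saline libraries, KO-LPS replicate 1 included. The log2 fold change was -1.01 ± 0.24 in KO (adjusted p = 0.0163), -0.87 ± 0.24 in WT (adjusted p = 0.0152) and -0.94 ± 0.17 averaged (adjusted p = 0.0002). The averaged call held whichever library was left out. The KO call was lost without KO-Saline replicate 1 or 2 or KO-LPS replicate 2 or 3, where the adjusted p reached 0.144. The WT call was lost without WT-Saline replicate 2 or WT-LPS replicate 1 or 3, where it reached 0.10. The window before a RefSeq start of *Atg7* that lies inside the annotated gene (chr6:114670846-114671095, plus strand) held 1 CACGTG, in capitals below.
Atg7: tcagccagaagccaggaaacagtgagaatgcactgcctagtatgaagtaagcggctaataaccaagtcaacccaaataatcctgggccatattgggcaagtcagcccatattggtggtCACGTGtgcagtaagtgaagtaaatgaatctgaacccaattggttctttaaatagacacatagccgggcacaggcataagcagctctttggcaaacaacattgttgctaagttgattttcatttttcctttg

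*Atg4d* (chr9:21265293-21277772, plus strand) was the most abundant autophagy gene by CPM and rose in WT. It had 661.3, 586.3 and 624.4 CPM in WT-LPS, against 341.3, 312.8 and 458.2 CPM in WT-Saline. The log2 fold change was 0.77 ± 0.22 (adjusted p = 0.0201), and the call was lost without WT-Saline replicate 1 or 2 or WT-LPS replicate 1 or 3, where the adjusted p reached 0.108. In KO-LPS it had 461.5, 673.6 and 615.3 CPM, against 435.7, 397.0 and 379.4 CPM in KO-Saline. These groups did not overlap either, but KO-LPS replicate 1 was close to KO-Saline. The log2 fold change in KO was 0.51 ± 0.22 (adjusted p = 0.221), and without KO-LPS replicate 1 it was 0.67 (adjusted p = 0.0291). It ran from 0.40 to 0.67 as each library was left out. With any other library left out *Atg4d* was not called in KO, with an adjusted p of up to 0.566. The averaged log2 fold change was 0.64 ± 0.16 (adjusted p = 0.00397), a call lost without the mean-variance trend (adjusted p = 0.0736). Exons of *Atg4d* share 1405 bases with those of *Kri1* on the minus strand, so these values are uncertain. *Kri1*, with fewer reads than *Atg4d* in every library, had a log2 fold change of 0.48 ± 0.23 in KO (adjusted p = 0.274) and 0.38 ± 0.23 in WT (adjusted p = 0.331).

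The other conjugation genes in the table were far lower than *Atg3*, *Atg7* and *Atg4d*, and none was called. *Atg12*, *Atg5* and *Atg16l1*, whose products form the complex that directs LC3 to the membrane, averaged 22.7, 11.8 and 26.0 CPM over the 12 libraries. *Atg4b* and *Atg4c*, encoding further ATG4 proteases, averaged 10.3 and 4.89 CPM. *Atg16l2*, a relative of *Atg16l1*, had 9.48, 6.33 and 16.7 CPM in WT-LPS, against 31.5, 42.3 and 35.4 CPM in WT-Saline. The groups did not overlap, but its log2 fold change of -1.74 ± 0.69 had an adjusted p of 0.109. In KO-LPS it had 21.3, 7.4 and 36.5 CPM, against 49.9, 21.7 and 14.6 CPM in KO-Saline, where the groups overlapped (-0.44 ± 0.69, adjusted p = 0.803).

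**Figure D1:**
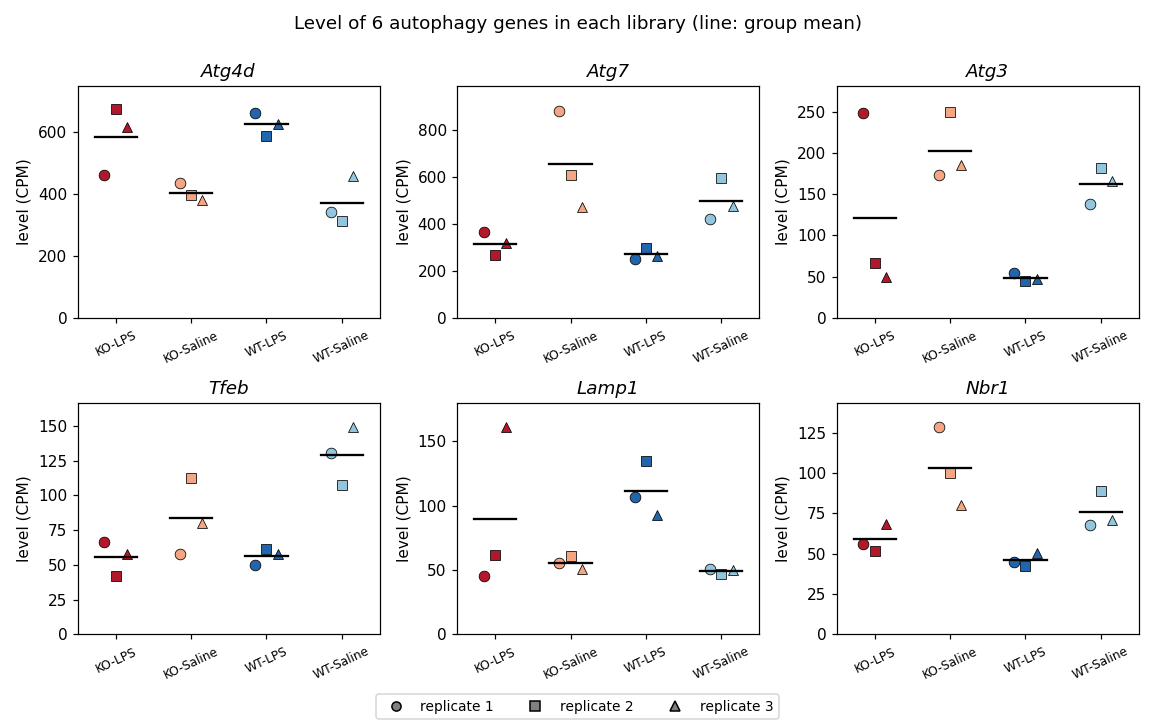
Level (CPM) of 6 autophagy genes in the 12 libraries, by group from KO-LPS to WT-Saline, with 1 point per library, its shape giving the replicate number and a line at the group mean. *Atg3* in KO-LPS replicate 1, at 248.1 CPM, lies among the saline libraries, while *Atg7* in the same library, at 362.8 CPM, lies below every saline library.

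*Tfeb*, the transcription factor known for switching on lysosomal and autophagy genes (chr17:47737030-47792419, plus strand, no opposite-strand exon overlap), fell in WT. It had 49.8, 61.2 and 57.6 CPM in WT-LPS, against 130.7, 107.8 and 149.0 CPM in WT-Saline. The groups did not overlap, and the log2 fold change was -1.18 ± 0.36 (adjusted p = 0.0271). Leaving out any WT-LPS library, or WT-Saline replicate 1 or 3, raised the adjusted p above the threshold, to at most 0.118. In KO-LPS it had 66.7, 41.9 and 57.9 CPM, against 57.7, 112.8 and 80.3 CPM in KO-Saline. Here the groups overlapped, and the log2 fold change was -0.55 ± 0.36 (adjusted p = 0.457). The averaged log2 fold change was -0.87 ± 0.25 (adjusted p = 0.0159), with an adjusted p of 0.0605 without KO-Saline replicate 2. No CACGTG was found in its RefSeq windows.

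*Lamp1* (chr8:13159161-13175338, plus strand) encodes an abundant glycoprotein of the lysosomal membrane. It had 106.7, 135.0 and 92.9 CPM in WT-LPS, against 50.8, 46.5 and 50.3 CPM in WT-Saline. These groups did not overlap, and the log2 fold change of 1.15 ± 0.40 had an adjusted p of 0.0616. *Lamp1* was called in WT among genes of at least 10 mean reads, with the 2 groups fitted alone, and without KO-LPS replicate 1 or 3. The adjusted p-values there were 0.015 to 0.047, and it was called in WT in no other alternative. In KO-LPS it had 45.4, 61.7 and 160.8 CPM, against 55.1, 60.8 and 51.1 CPM in KO-Saline. KO-LPS replicate 3 alone was high in that group, and the log2 fold change in KO was 0.46 ± 0.40 (adjusted p = 0.610), or -0.066 without that library. Averaged over the genotypes *Lamp1* was called as higher (0.80 ± 0.28, adjusted p = 0.0491), a call that held in only 1 of the 12 fits without a library, that without KO-LPS replicate 1. It was lost too without the mean-variance trend (adjusted p = 0.119), with either other scaling and with the replicate block. Its exons share 249 bases with *Grtp1* on the minus strand, which had 5.83 reads per library against 34.7 for *Lamp1*. The 250 bases before the start (chr8:13158911-13159160, plus strand) are shown because they held 4 copies of CACGTG, in capitals.
Lamp1: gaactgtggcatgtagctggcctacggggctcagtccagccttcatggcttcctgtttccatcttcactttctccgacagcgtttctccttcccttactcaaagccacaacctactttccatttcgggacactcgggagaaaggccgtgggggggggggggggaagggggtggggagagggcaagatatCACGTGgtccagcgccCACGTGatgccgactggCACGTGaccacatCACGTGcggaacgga
*Lamp2*, the related lysosomal membrane protein, had 170.7, 168.7 and 148.7 CPM in WT-LPS, against 113.8, 109.9 and 117.3 CPM in WT-Saline. These groups did not overlap, but the log2 fold change of 0.51 ± 0.29 was not called (adjusted p = 0.284). In KO-LPS it had 114.7, 118.4 and 199.4 CPM, against 162.7, 136.7 and 124.0 CPM in KO-Saline, where the groups overlapped and the log2 fold change was -0.01 ± 0.29 (adjusted p = 0.996).

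Among the cargo receptors, *Nbr1* (chr11:101552149-101581951, plus strand, no opposite-strand exon overlap) was called as lower in the average over both genotypes. It had 56.0, 51.8 and 68.6 CPM in KO-LPS, against 128.6, 99.8 and 80.3 CPM in KO-Saline. In WT-LPS it had 45.0, 42.2 and 50.2 CPM, against 67.8, 88.8 and 70.8 CPM in WT-Saline. The LPS libraries lay below the saline libraries in both genotypes. The averaged log2 fold change was -0.74 ± 0.25 (adjusted p = 0.0409), while within KO it was -0.78 ± 0.36 (adjusted p = 0.256) and within WT -0.71 ± 0.36 (adjusted p = 0.223). The averaged call was lost in 10 of the 12 fits that left out a library, with an adjusted p of up to 0.105, and under robust moderation, voom weights and the replicate block, with one of up to 0.0541. Neither of its windows nor that of *Atg4d* held CACGTG.

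The other receptors were not called. *Sqstm1*, encoding p62, which binds ubiquitin and LC3, averaged 163 ± 38 CPM in KO-LPS, 131 ± 7.4 CPM in KO-Saline, 165 ± 37 CPM in WT-LPS and 139 ± 30 CPM in WT-Saline (SD, n = 3 each). Its log2 fold change was 0.28 ± 0.29 in KO and 0.23 ± 0.29 in WT. *Tax1bp1*, another ubiquitin-binding receptor, had 242.8, 86.4 and 113.6 CPM in KO-LPS, against 173.2, 230.0 and 192.1 CPM in KO-Saline. The log2 fold change in KO was -0.56 ± 0.31 (adjusted p = 0.370). KO-LPS replicate 1 was the highest of the 12 libraries for this gene, so leaving it out lowers the KO-LPS mean. Without that library *Tax1bp1* was called as lower in KO, among 1076 genes of the table. In WT-LPS it had 175.4, 149.7 and 161.7 CPM, against 154.9, 183.9 and 212.3 CPM in WT-Saline, where the groups overlapped (-0.17 ± 0.31, adjusted p = 0.803). *Optn*, the receptor optineurin, averaged 7.25 reads per library, and *Bnip3* and *Bnip3l*, receptors for mitochondria, 4.50 and 18.75. *Calcoco1*, a receptor for the endoplasmic reticulum, averaged 27.2 CPM over the 12 libraries.

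Of the LC3-type genes, whose products decorate the autophagosome, none was called. *Gabarap* averaged 158 ± 39 CPM in KO-LPS, 197 ± 19 CPM in KO-Saline, 153 ± 45 CPM in WT-LPS and 185 ± 6.9 CPM in WT-Saline (SD, n = 3 each). Its log2 fold change was -0.34 ± 0.28 in KO and -0.32 ± 0.28 in WT. *Map1lc3b*, encoding LC3B, had -0.34 ± 0.28 in KO and -0.37 ± 0.28 in WT. *Map1lc3a* and *Gabarapl2* averaged 5.67 and 3.0 reads per library, and *Gabarapl2* had 0 reads in 4 of the 12 libraries. These levels are of transcripts, and the lipid attachment of LC3 was not measured.

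The initiation kinase gene *Ulk1* was the third most abundant autophagy gene by CPM. It had 245.4, 101.2 and 145.8 CPM in KO-LPS, against 262.5, 288.6 and 172.7 CPM in KO-Saline. In WT-LPS it had 187.3, 139.2 and 224.9 CPM, against 273.5, 175.4 and 270.1 CPM in WT-Saline. Both pairs overlapped, and the averaged log2 fold change of -0.50 ± 0.22 had an adjusted p of 0.122. Without KO-LPS replicate 1, *Ulk1* was called as lower in KO and in the average. With all libraries the log2 fold change in KO was -0.61 ± 0.31 (adjusted p = 0.311). *Atg13*, which links ULK1 to its complex, had 304.1, 246.7 and 150.1 CPM in KO-LPS and 254.6, 186.6 and 85.1 CPM in KO-Saline. It had 125.6, 164.5 and 187.7 CPM in WT-LPS and 193.6, 143.7 and 210.5 CPM in WT-Saline. The SD within KO-LPS (77.9 CPM) and within KO-Saline (85.3 CPM) was larger than the distance between any of the group means. *Ulk2*, *Rb1cc1* (the scaffold FIP200) and *Atg101* averaged 57.2, 71.7 and 23.5 CPM over the 12 libraries and were not called.

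The measured class III kinase genes averaged 11.7 to 62.8 CPM over the 12 libraries. *Becn1*, encoding Beclin 1, had 72.03, 54.3 and 57.9 CPM in KO-LPS, 60.4, 62.9 and 82.7 CPM in KO-Saline, 90.1, 88.6 and 53.9 CPM in WT-LPS and 38.7, 42.3 and 50.3 CPM in WT-Saline. WT-Saline was the lowest group, and the log2 fold change with LPS was -0.15 ± 0.38 in KO (adjusted p = 0.879) and 0.78 ± 0.38 in WT (adjusted p = 0.199). Exons of *Becn1* share 3104 bases with those of *Cntd1* on the opposite strand, so the level and changes of *Becn1* are uncertain. *Cntd1* had more reads than *Becn1* in all 12 libraries. *Pik3r4*, and *Uvrag*, a partner of Beclin 1, averaged 11.7 and 29.4 CPM over the 12 libraries. None of the 5 measured genes of this complex was called in any comparison.

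Among genes of membrane supply, *Vmp1* had 205.4, 224.5 and 214.4 CPM in KO-LPS, 233.6, 180.1 and 260.2 CPM in KO-Saline, 220.4, 181.4 and 193.3 CPM in WT-LPS and 140.4, 177.6 and 191.8 CPM in WT-Saline. Its 4 groups overlapped except KO-LPS, which lay above WT-Saline. *Atg9a*, encoding the lipid scramblase of ATG9 vesicles, had 97.2, 109.7 and 130.1 CPM in WT-LPS, against 77.5, 44.4 and 31.7 CPM in WT-Saline. The groups did not overlap, and the log2 fold change of 1.21 ± 0.44 had an adjusted p of 0.0764. *Atg9a* was called in WT with voom weights, with the 2 groups fitted alone and without WT-Saline replicate 1 or KO-LPS replicate 1. It was called there in no other alternative. In KO-LPS *Atg9a* had 34.7, 108.6 and 126.5 CPM, against 44.6, 95.5 and 58.4 CPM in KO-Saline, with replicate 1 the lowest in each. *Atg2a* and *Atg2b*, the lipid transfer proteins, averaged 122.8 and 23.0 CPM, and *Wipi1*, *Wipi2*, *Wdr45* and *Wdr45b*, which encode the phosphoinositide-binding WIPI proteins, 127.1, 41.4, 20.9 and 15.9 CPM over the 12 libraries. None of these genes was called in the main model.

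In KO, 1 of the 42 autophagy genes was called in the LPS comparison, the fall of *Atg7*, where 3.35% of all genes were called, 1.99% as higher and 1.35% as lower. The median log2 fold change of the 42 genes was -0.34 in KO, against 0.09 over all genes, and -0.43 without KO-LPS replicate 1. Without KO-LPS replicate 1, 5 autophagy genes were called in KO, *Atg4d* as higher and *Ulk1*, *Atg3*, *Atg7* and *Tax1bp1* as lower, among 1076 genes of the table. *Atg7* was not called in KO without the mean-variance trend (adjusted p = 0.219) or with the KO groups fitted alone (adjusted p = 0.0774). In the average over both genotypes 6 autophagy genes were called, 2 as higher and 4 as lower, against 16.9% of all genes, 9.86% as higher and 7.03% as lower. Without KO-LPS replicate 1 that count was 10, 3 as higher and 7 as lower, among 2228 genes, with *Ulk1*, *Wipi2*, *Tax1bp1* and *Atg9a* added. The summed level of the 4 of 10 platelet markers in the table also moved with LPS, at 244 to 523 CPM in KO-LPS, 692 to 895 CPM in KO-Saline, 180 to 283 CPM in WT-LPS and 537 to 805 CPM in WT-Saline. The platelet markers *Pf4*, *Ppbp* and *Itga2b* and the granule genes *Elane* and *Mpo* had no row in the table. The marker counts stand beside 3.35% of all genes called in KO and 11.7% in WT. In WT 62.5% of the immature neutrophil, 75% of the neutrophil and 75% of the platelet markers were called. So were 80% of the monocyte and 57.1% of the lymphocyte and dendritic cell markers. Of the 8 immature neutrophil markers in the table, 3 rose in KO and 5 in WT, and of the 4 platelet markers 1 fell in KO and 3 in WT. The 5 of 12 monocyte markers in the table summed to 747 to 1132 CPM in KO-LPS, 540 to 769 CPM in KO-Saline, 875 to 1289 CPM in WT-LPS and 478 to 596 CPM in WT-Saline. Of these markers 1 rose and 1 fell in KO, with a median log2 fold change of -0.56, and 2 rose and 2 fell in WT, with a median of -0.89. Of the 16 neutrophil markers 4 rose and 2 fell in KO, and 10 rose and 2 fell in WT. Of the 7 of 18 lymphocyte and dendritic cell markers in the table, 1 rose in KO, and 1 rose and 3 fell in WT. None of the 3 of 11 erythroid markers in the table was called in either. The part of these cell types in the autophagy gene changes was not tested.

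Groups that do not overlap are a looser description than a call. WT-LPS and WT-Saline did not overlap for 17 autophagy genes, against 30.6% of all genes. WT-LPS lay above for *Becn1*, *Pik3c3*, *Ambra1*, *Atg9a*, *Atg4d*, *Optn*, *Bnip3l*, *Lamp1* and *Lamp2*, and below for *Ulk2*, *Uvrag*, *Wipi2*, *Atg3*, *Atg7*, *Atg16l2*, *Nbr1* and *Tfeb*. KO-LPS and KO-Saline did not overlap for 4, against 16.6% of all genes, with *Atg4d* above and *Wdr45*, *Atg7* and *Nbr1* below. The WT and KO comparisons share no library.

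**Figure D2:**
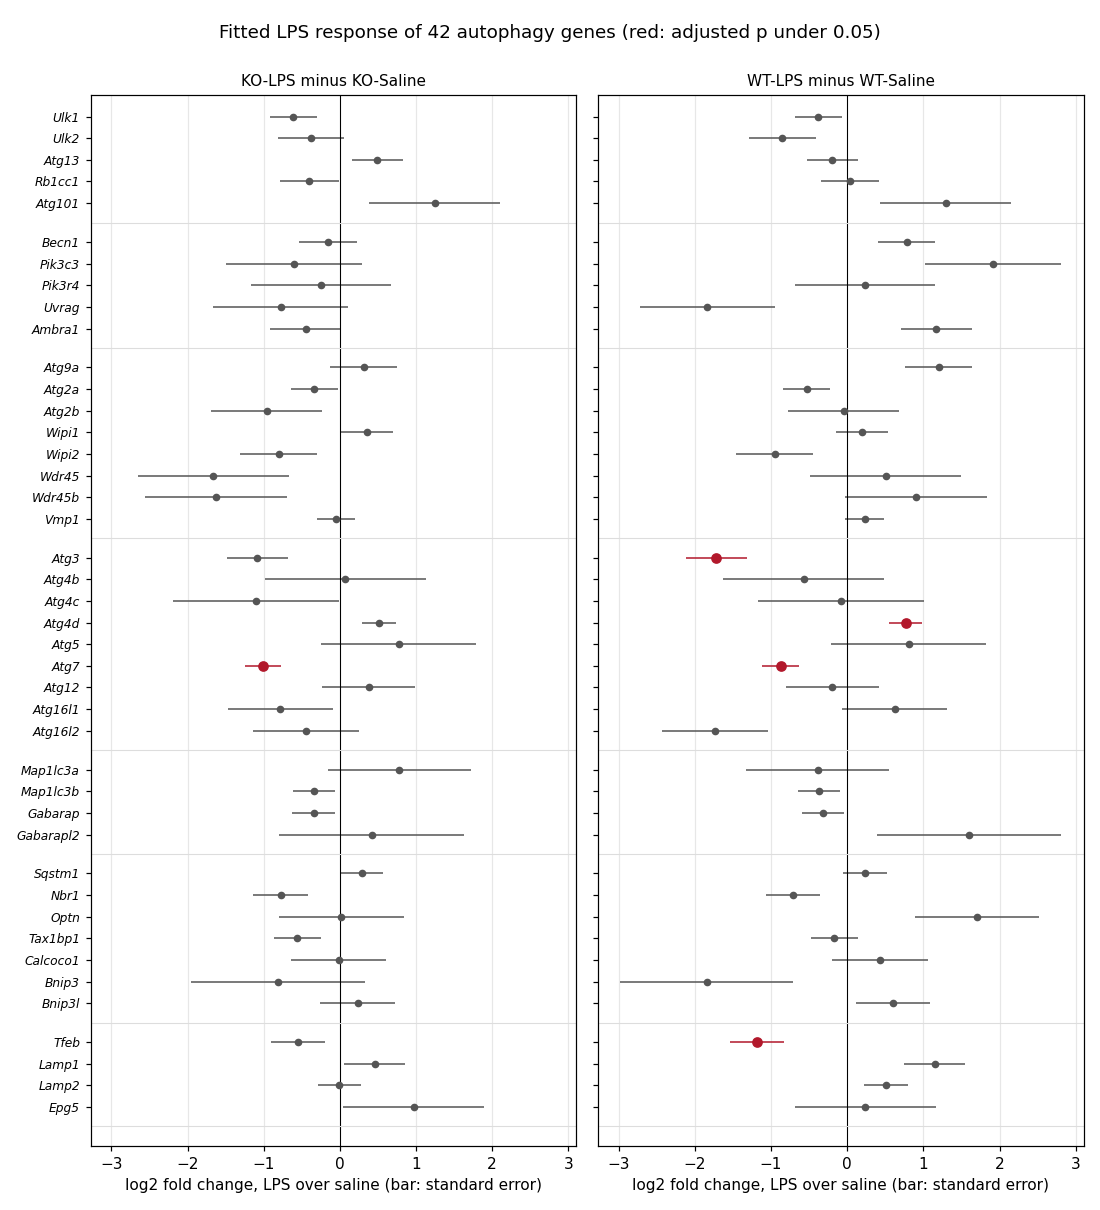
Fitted log2 fold change of LPS over saline for the 42 autophagy genes, in KO on the left and WT on the right, in blocks by role, with bars of 1 standard error and red points for an adjusted p under 0.05. *Atg7* is red in both panels, and *Atg3*, *Atg4d* and *Tfeb* in WT.

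The other question of the design was how Hmgb1ΔMye neutrophils differ from WT neutrophils. By limma none of the 42 autophagy genes was called in saline, where 0.0107% of all genes were called and 2 autophagy genes had an unadjusted p under 0.05, as did 6.86% of all genes. Under LPS again none was called, against 0% of all genes, with 3 autophagy genes and 5.03% of all genes at an unadjusted p under 0.05. Averaged over both treatments none was called, against 0.0107% of all genes, with 4 autophagy genes and 5.65% of all genes at an unadjusted p under 0.05. Each alternative analysis also gave a count of 0. The median log2 difference of KO from WT was 0.13 in saline and -0.14 under LPS, against -0.02 and -0.01 over all genes. KO-Saline and WT-Saline did not overlap for 7 genes, against 12.1% of all genes, with *Becn1*, *Pik3c3*, *Atg2b*, *Map1lc3b*, *Lamp1* and *Lamp2* higher and *Atg12* lower in KO. For *Becn1*, *Pik3c3*, *Lamp1* and *Lamp2*, WT-LPS also lay above WT-Saline. Both comparisons use the same WT-Saline libraries and are not independent. KO-LPS and WT-LPS did not overlap for 5, against 9.79%, with *Map1lc3b* and *Nbr1* higher and *Ambra1*, *Wdr45b* and *Atg16l1* lower in KO.

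*Map1lc3b* lay higher in KO under both treatments. It had 168.1, 138.2 and 143.7 CPM in KO-LPS, against 116.1, 92.8 and 85.5 CPM in WT-LPS. In KO-Saline it had 220.5, 188.8 and 163.0 CPM, against 125.9, 148.0 and 108.0 CPM in WT-Saline. Neither pair of groups overlapped. The averaged log2 difference was 0.60 ± 0.20 (95% interval 0.19 to 1.0), with an unadjusted p of 0.00523 but an adjusted p of 0.732, so it did not pass the test. Its exons share 58 bases with *Zcchc14* on the other strand.

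*Pik3c3*, the catalytic subunit VPS34, had the smallest unadjusted p of the autophagy genes between genotypes in saline. It had 5, 10 and 13 reads in KO-Saline and 0, 1 and 5 reads in WT-Saline. The log2 difference of 2.70 ± 0.90 (95% interval 0.86 to 4.54) had an adjusted p of 0.522. Under LPS it had 4, 7 and 6 reads in KO and 5, 5 and 7 reads in WT, where the groups overlapped. *Epg5*, which tethers autophagosomes to lysosomes, had 17, 4 and 0 reads in KO-Saline and 8, 9 and 30 reads in WT-Saline, with 2, 7 and 15 reads in KO-LPS and 15, 18 and 14 reads in WT-LPS. Its log2 difference in saline was -1.81 ± 0.92 (adjusted p = 0.754), and it ran from -3.06 to -0.44 as each library was left out.

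Under LPS the smallest unadjusted p values between genotypes were those of *Atg3*, *Map1lc3b* and *Wdr45b*. The *Atg3* difference was 0.94 ± 0.40 (95% interval 0.13 to 1.76, adjusted p = 0.949), and without KO-LPS replicate 1 it was 0.25. *Wdr45b* had 0, 3 and 7 reads in KO-LPS and 7, 13 and 13 reads in WT-LPS, with 2, 9 and 16 reads in KO-Saline and 5, 3 and 10 reads in WT-Saline. Its log2 difference under LPS was -2.03 ± 0.93 (adjusted p = 0.949), and ran from -2.78 to -0.99 as each library was left out. The interval of that difference was -3.94 to -0.13, the groups did not overlap, and it did not pass the test after adjustment over all genes.

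The interaction, the LPS response in KO minus that in WT, was called by limma for none of the 42 genes and for 0% of all genes, with 1 autophagy gene and 5.97% of all genes at an unadjusted p under 0.05. That gene was *Ambra1*, a regulator of Beclin 1. It had 34.7, 44.4 and 27.9 CPM in KO-LPS, 68.2, 52.1 and 31.6 CPM in KO-Saline, 47.4, 61.2 and 78.1 CPM in WT-LPS and 21.8, 25.4 and 33.5 CPM in WT-Saline. WT-LPS lay above WT-Saline, while the KO groups overlapped. The interaction was -1.62 ± 0.65 on the log2 scale (adjusted p = 0.792), and -1.62 ± 0.69 without KO-LPS replicate 1 (adjusted p = 0.808). The next in order were *Pik3c3* at -2.52 ± 1.27 and *Wdr45b* at -2.53 ± 1.31. For *Atg3* the interaction was 0.63 ± 0.56 (adjusted p = 0.899), so its call in WT without one in KO was not a difference between genotypes by this test. Without KO-LPS replicate 1 it was -0.067 ± 0.44 (adjusted p = 0.998). The median standard error of the interaction was 0.67, which leaves differences of that order undetected.

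**Figure D3:**
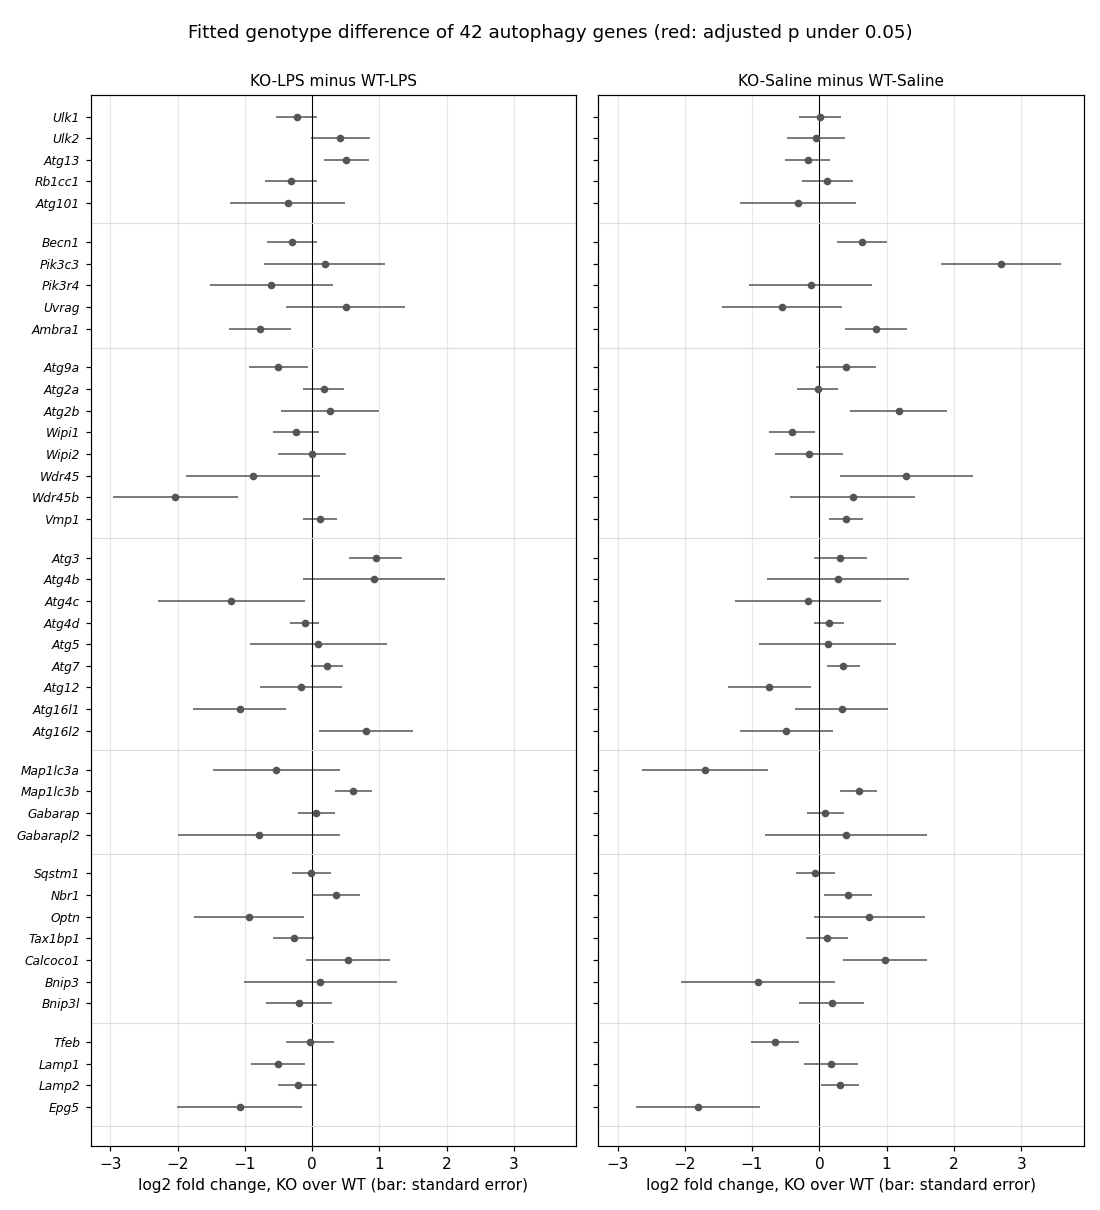
Fitted log2 fold change of KO over WT for the 42 autophagy genes, under LPS on the left and in saline on the right, in blocks by role, with bars of 1 standard error. No gene passed the test in either panel, and the points farthest from 0 are *Pik3c3* in saline at 2.70 and *Wdr45b* under LPS at -2.03, both with under 10 mean reads per library.

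Overlap with genes on the other strand bears on 13 of the measured autophagy genes. In 8 pairs both genes were measured, and in 4 of these the neighbour had more reads on average. *Becn1* averaged 27.8 reads per library against 266.1 for *Cntd1*, with which it shares 3104 exonic bases. *Atg9a* averaged 36.2 against 118.9 for *Ankzf1*, *Atg16l2* 10.9 against 43.8 for *Fchsd2*, and *Map1lc3b* 61.9 against 71.6 for *Zcchc14*. Of these neighbours, 3 were called with LPS in WT. *Ankzf1* rose (1.56 ± 0.31, adjusted p = 0.000859), in the direction of the value of *Atg9a*. *Fchsd2* fell (-1.55 ± 0.48, adjusted p = 0.0330) and *Zcchc14* fell (-2.07 ± 0.30, adjusted p = 2.91e-05). The share of either strand in the reads was not tested. The other pairs were *Atg4d* with *Kri1*, *Sqstm1* with *Mrnip*, *Lamp1* with *Grtp1* and *Atg2b* with *Gskip*, in which the autophagy gene had more reads. Among the 29 autophagy genes with no such overlap, the LPS comparison called 1 in KO, 3 in WT and 4 in the average. Over all genes the called shares were 3.35%, 11.7% and 16.9% in that order, so these counts were near the background.

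**Figure D4:**
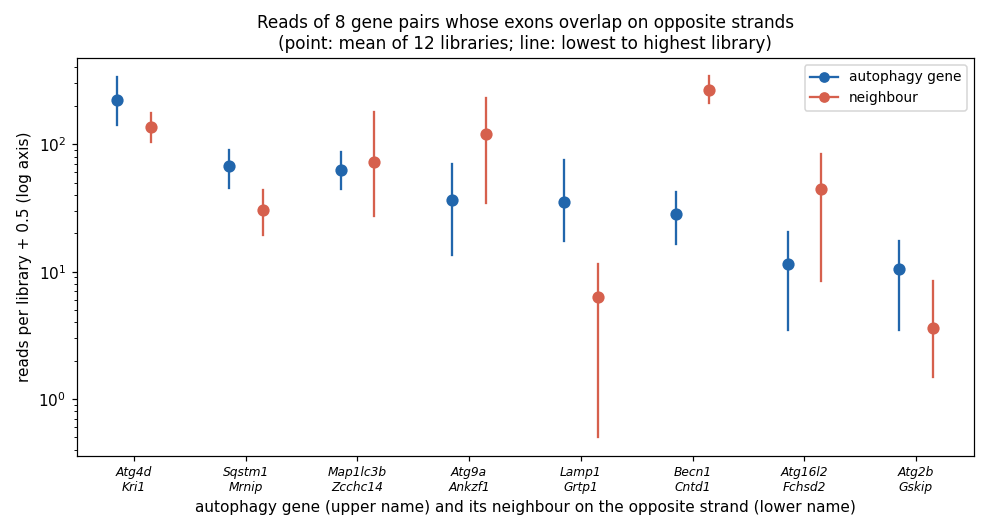
Reads per library plus 0.5, on a log axis, of 8 autophagy genes and of the neighbour whose exons overlap theirs on the opposite strand, with points at the mean of the 12 libraries and lines from the lowest to the highest library. *Cntd1*, at 266.1 mean reads, lies above *Becn1*, at 27.8, throughout, while *Atg4d*, at 222.2, lies above *Kri1*, at 135.2.

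Calls among genes around the core machinery are read here beside the share over all genes, 3.35% in KO, 11.7% in WT and 16.9% in the average. Of 51 measured lysosomal genes (hydrolases, membrane proteins and the proton pump), 2 rose and 1 fell with LPS in KO, and 5 rose and 4 fell in WT, 5.88% and 17.6% of the list. The median log2 fold change of this list was 0.21 in KO and 0.24 in WT, against 0.09 and 0.06 over all genes. *Ctss*, the protease cathepsin S, averaged 83.5 ± 9.98 CPM in KO-LPS, 31.9 ± 16.0 CPM in KO-Saline, 114 ± 32 CPM in WT-LPS and 11.6 ± 7.6 CPM in WT-Saline (SD, n = 3 each). It rose in WT (3.34 ± 0.51, adjusted p = 4.38e-05), as did *Galns*, a sulfatase (3.99 ± 0.98, adjusted p = 0.00651), and *Npc2*, a cholesterol transfer protein (1.72 ± 0.54, adjusted p = 0.0331). *Gla*, the alpha-galactosidase, had 1 read in WT-LPS against 24 in WT-Saline, a ratio of pooled CPM of 0.0414 (exact 95% interval 0.00101 to 0.254), and was called as lower.

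Of 31 measured regulators of TORC1, AMPK and the TFEB family, which set autophagy to nutrient supply, 2 rose with LPS in KO and 2 in WT, 6.45% of the list in each, and none fell in either. The median log2 fold change was -0.10 in KO and -0.11 in WT. *Rptor*, the raptor subunit of TORC1, averaged 340 ± 275 CPM in KO-LPS, 28.7 ± 24.6 CPM in KO-Saline, 276 ± 83 CPM in WT-LPS and 5.55 ± 8.06 CPM in WT-Saline (SD, n = 3 each). It rose in KO (3.06 ± 0.86, adjusted p = 0.0456) and in WT (6.15 ± 0.86, adjusted p = 1.86e-05). Without KO-LPS replicate 1 the *Rptor* value in KO was 4.49 ± 0.69 (adjusted p = 7.11e-06). An antisense gene, *Rptoros*, shares 84 exonic bases with *Rptor*, so its reads are uncertain. *Lamtor4*, of the Ragulator complex that anchors TORC1 to the lysosome, had 209 ± 79 CPM in KO-LPS, 167 ± 27 CPM in KO-Saline, 289 ± 47 CPM in WT-LPS and 84.4 ± 13.0 CPM in WT-Saline. It rose in WT (1.76 ± 0.30, adjusted p = 0.000145) and was not called in KO (0.25 ± 0.30, adjusted p = 0.728), nor without KO-LPS replicate 1 (0.61 ± 0.28, adjusted p = 0.161).

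Of 18 measured genes of autophagosome and lysosome fusion, 1 rose in KO and 1 in WT, 5.56% of the list in each, and the list's median log2 fold change was 0.49 in KO and 0.62 in WT. The gene called in WT was *Rubcnl*, encoding Pacer, a partner of the class III kinase complex (2.48 ± 0.58, adjusted p = 0.00432). Of 29 measured genes of mitophagy and of other autophagy receptors and factors, 1 fell in KO, and 3 rose and 1 fell in WT, 3.45% and 13.8% of the list. The median of this list was -0.12 in KO and 0.29 in WT. *Bcl2l13*, a mitochondrial receptor gene that overlaps *Bid* on the other strand, fell in KO (-1.51 ± 0.28, adjusted p = 0.00282) and in WT (-1.98 ± 0.28, adjusted p = 1.86e-05). In WT *Irgm1*, an immunity-related GTPase (1.76 ± 0.52, adjusted p = 0.0229), *Trim30a* (1.40 ± 0.34, adjusted p = 0.00591) and *Trp53inp1*, which binds LC3-type proteins (1.28 ± 0.31, adjusted p = 0.00527), rose. In the average over both genotypes, 6 lysosomal genes rose and 5 fell, 3 TORC1 regulators rose and 1 fell, 2 fusion genes rose, and 4 mitophagy genes rose and 4 fell. These were 21.6%, 12.9%, 11.1% and 27.6% of the lists in that order. Without KO-LPS replicate 1, 4 lysosomal genes rose and 3 fell in KO. In the same fit 2 TORC1 regulators and 2 fusion genes rose in KO, and 1 mitophagy gene rose and 2 fell. That fit called 1076 genes of the table in KO, against 314 with no library left out. The share of 3.35% is therefore not the background of these counts. None of these lists had a called gene in the genotype comparisons or the interaction.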

How the data were processed

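RNA of blood neutrophils was purified with a miRNeasy kit and made into libraries with a Tecan total RNA kit, per the labels' protocols. The authors deposited log2 values for 9374 genes in 12 columns. They had the form of log2 CPM with 0.5 reads added, since whole reads came back within 0.0001 for all values. The build was mm10, per the submitters' processing notes, and the aligner, counter, annotation, strand setting and gene filter were not given in the sources used here. The deposited values were tested with limma 3.58.1 in R 4.3.3, as 4 group means over 12 libraries with a mean-variance trend, two-sided, with adjustment over all genes in each of 7 comparisons, and checked on simulated data. Fold changes of low genes are understated by the added 0.5 reads. Binomial intervals, the interval of the *Gla* ratio and the floor of 3 reads cover counting error only, as reads without molecular identifiers do not count molecules. Intervals of log2 differences are limma's, from the spread between libraries. Exon overlaps came from GENCODE, and promoter windows from RefSeq on GRCm38.p6. The members, gene lists and tests were chosen with earlier results of these data known. Values in every library are given for members called in any comparison, for the 5 of highest mean level and for the 3 of smallest unadjusted p in the genotype comparisons and the interaction, and for some others chosen after their values were seen (*Atg9a*, *Atg16l2*, *Becn1*, *Lamp2* and *Tax1bp1*). Other lists are given by counts, with up to 4 called genes of largest change in WT. Alternatives were other moderation, voom weights, 2 added reads, a filter at a mean of 10 reads, other scalings, fits of 2 groups alone, a replicate block and leaving out each library.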

Additional observations from a re-analysis of the deposited data

How the results depend on the processing

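Leaving out each library in turn gave 0 to 5 called autophagy genes for LPS in KO, 1 to 6 in WT and 3 to 10 in the average. The number called among all genes moved too over these fits. It was 32 to 1076 in KO, 734 to 1427 in WT and 1161 to 2228 in the average. The autophagy count in the average fell to 3 without KO-Saline replicate 2. That in WT fell to 1 without WT-LPS replicate 1 or 3 and to 2 without WT-Saline replicate 2. Those fits called 740, 734 and 775 genes of the table in WT, in that order. The median log2 fold change ranged from -0.43 to -0.17 for LPS in KO and from -0.38 to -0.093 for the interaction over these fits. Without a mean-variance trend 0 autophagy genes were called in KO (16 of all genes) and 0 in WT (363 of all genes), and a fit of the KO groups alone called 0 (82 of all genes). *Lamp1* in KO ranged from -0.066, without KO-LPS replicate 3, to 0.83, without KO-LPS replicate 1. The cause of these shifts was not tested. No pairing of samples by replicate number was seen, but low correlations at this depth cannot exclude it. The 18 same-numbered pairs correlated at -0.07 to 0.04, and with the replicate block the counts were 1 in KO, 4 in WT and 4 in the average. That fit called 336 genes of the table in KO and 1086 in WT. Among the 29 members with no opposite-strand exon overlap, an alternative chosen after seeing the data, the counts were 1 in KO, 3 in WT and 4 in the average. The shares over all genes were 3.35%, 11.7% and 16.9% in that order. Counts for the genotype comparisons and the interaction were 0 in every alternative run. Depth limits members of few reads most, with standard errors of 0.82 to 1.21 for those averaging under 10 reads and 0.22 to 0.92 for the others.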
